A study of Mus musculus with 12 samples.

Results

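Gene expression was compared between mouse fibroblasts in which YAP S127A was induced and the same kind of fibroblasts in which MycER was activated on top of it. The comparison is OHT+dox against dox, 3 libraries each. It was formed through the mock group that the deposited comparisons share, over the genes that have an adjusted p both in the comparison of dox and in that of OHT+dox with mock and whose symbol had not been turned into a calendar date. These were 10447 of the 21671 genes of the table.

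All cells were immortalized embryonic fibroblasts of the line 3T9 that carry MycER, a fusion of Myc with the hormone-binding part of the estrogen receptor that 4-hydroxytamoxifen (OHT) switches on. They also carry a lentiviral vector from which doxycycline (dox) induces YAP S127A, a YAP protein in which the serine that the Hippo kinases LATS1 and LATS2 phosphorylate is replaced by alanine. The genotype label names only MycER, and the study's methods name the vector. The 4 groups were mock (neither agent), OHT (400 nM), dox (2 µg/mL) and OHT+dox (both), so the control cells of each comparison carried both transgenes too. The cells were serum-starved and highly confluent. How long they were treated is not stated in the sources used here. The 3T9MycER cells that received the vector were used as a selected population. Cells without the vector that were given dox are not analysed here, so YAP S127A and dox itself cannot be told apart, and the same holds for MycER and OHT.

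Myc is a transcription factor that binds E-box sequences together with its partner Max and drives genes of ribosome production, nucleotide synthesis and cell cycle entry. YAP is a transcriptional coactivator that enters the nucleus when the Hippo kinases are inactive and acts through the TEAD family of DNA-binding proteins. In dense cultures of fibroblasts the Hippo pathway is active and YAP is held in the cytoplasm, a control that the S127A mutant escapes.

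The table holds no value per library, and the values below are group means. A level is the mean normalized count of a group over its 3 libraries, recovered from the deposited means and folds. A fold is the log2 fold change of OHT+dox over dox with the shrinkage undone, followed by its standard error (±), and values in parentheses after a gene are such folds unless said otherwise. A gene is said to be higher, to rise, to be lower or to fall only where the two-sided Wald test passed with an adjusted p below 0.05, adjusted over the 10447 genes. The standard error had a median of 0.11 on the log2 scale, and 90% of genes lay between 0.077 and 0.24. The summed levels of the tested genes were 8.16e+06 in OHT+dox and 8.17e+06 in dox. Read totals are unknown, so no interval or detection limit from counts is given. Normalized counts do not show whether the RNA per cell changed, and in these bulk samples fewer cells of a kind and less RNA per cell cannot be told apart. Whether the 3 libraries of a group are 3 cultures is not stated, so the p-values reflect only how these libraries spread, and that spread may be technical.

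Addition of OHT to the dox-treated cells raised 1489 genes, 14.3% of those tested, and lowered 1138, 10.9%. The median gene had a log2 fold change of −0.0021, and 90% of genes lay between −0.50 and 0.54. Most changes were small. The median log2 fold change was 0.44 among the genes that rose and −0.42 among those that fell, and 88 of the genes that rose and 36 of those that fell changed more than 2-fold. With the fold minimum that the authors' calls use, an absolute log2 fold change above 0.5, 593 genes rose and 428 fell. The counts also depend on the standard error: 618 genes rose and 346 fell when the standard errors of both comparisons with mock were added as if they shared no library, and 2401 rose and 2256 fell with smaller errors, matched to how far the responses to OHT with and without dox differed across genes.

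Among the genes tested, those that rose furthest include enzymes of lipids, glycans and steroids, and proteins of other kinds. No gene with an authors' mean below 50.5 had an adjusted p in dox against mock. Genes low without OHT were thus left out even where OHT raised them strongly. Dusp2 had authors' means of 18.1 in the comparison of dox and 88.9 in that of OHT+dox with mock. Untested genes also moved the other way, such as Ankrd1 with 47.0 and 30.0. Reep6, which shapes the endoplasmic reticulum, went from a level of 61.1 to 341 (log2 fold change 2.48 ± 0.18). Smpdl3b, a surface enzyme of the sphingomyelin phosphodiesterase family, rose from 146 to 742 (2.35 ± 0.15) and Srd5a1, a steroid 5α-reductase, from 53.6 to 254 (2.25 ± 0.19). Dgat2 makes triglycerides. Its level rose from 72.9 to 324, a log2 fold change of 2.15 ± 0.18. St6galnac4, which adds sialic acid to glycans, had a level of 652 in dox and 2512 in OHT+dox (log2 fold change 1.95 ± 0.096, adjusted p = 4.62e-88 from the Wald test). Podxl, the sialomucin podocalyxin, rose from 60.3 to 261 (log2 fold change 2.11 ± 0.23).

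Nuclear and signalling genes were also among the 15 furthest higher. The RNA polymerase III subunit Polr3g went from 155 to 613 (log2 fold change 1.98 ± 0.17). Hmga1, an architectural chromatin protein with related gene copies whose reads may be shared, rose from 385 to 1308 (1.76 ± 0.11). The Myc-interacting protein Cdca7l went from 107 to 409 (1.93 ± 0.18). Ankrd6, a protein of Wnt signalling, rose from 94.8 to 423 (2.16 ± 0.18) and Rragb, a Rag GTPase that passes amino acid signals to mTORC1, from 142 to 465 (1.71 ± 0.15). Ifi30, a thiol reductase of the lysosome, rose from 52.2 to 175 (1.74 ± 0.21), and the secreted matrix protein Smoc1 from 161 to 582 (1.85 ± 0.29). The remaining leading genes, Slc35g1 and Pm20d2, had log2 fold changes of 2.01 ± 0.17 and 1.80 ± 0.19. For all of the 15 genes the level in OHT+dox lay above that in mock as well.

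**Figure D1:**
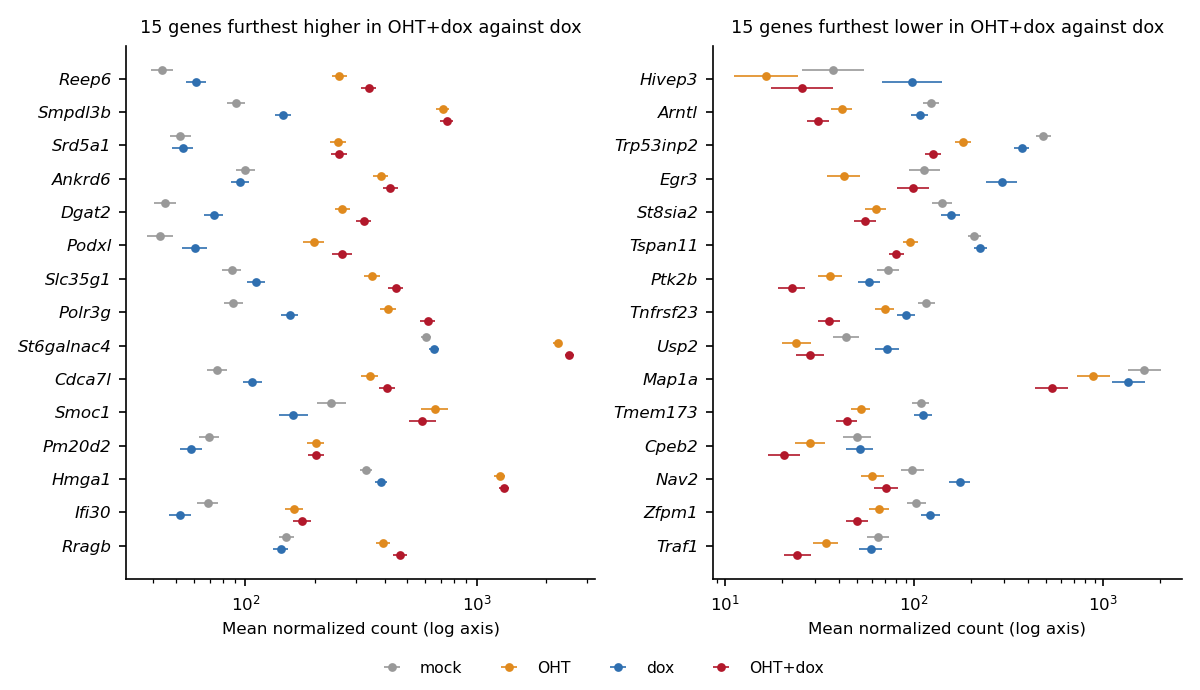
Mean normalized count (log axis) of the 15 genes furthest higher (left) and the 15 furthest lower (right) in OHT+dox against dox, among tested genes with a level of at least 50 in the higher of both groups. Points are group means over 3 libraries in mock, OHT, dox and OHT+dox, and bars are ± 1 standard error. In the left panel both groups with OHT sit above both groups without it, and Hivep3 and Map1a in the right panel carry wide bars.

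The genes that fell furthest include transcription factors and signalling proteins. Arntl (BMAL1), the activator at the core of the circadian clock, fell from a level of 107 to 30.9 (log2 fold change −1.80 ± 0.25, adjusted p = 2.4e-11 from the Wald test). Usp2, a deubiquitinase under circadian control, fell from 71.5 to 28.1 (−1.35 ± 0.32). The growth factor-induced transcription factor Egr3 fell from 289.8 to 98.6 (−1.56 ± 0.38). Trp53inp2, a protein of autophagosome formation, fell from 370.0 to 125 (−1.56 ± 0.19). The polysialyltransferase St8sia2 fell from 156 to 54.7 (−1.51 ± 0.25), so 2 sialyltransferases stood at opposite ends of the response. Tmem173 (STING), the adaptor of cytosolic DNA sensing, fell from 111 to 43.8 (−1.34 ± 0.24).

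Ptk2b (PYK2), a kinase related to focal adhesion kinase, fell from 57.5 to 22.5 (log2 fold change −1.36 ± 0.31), and Traf1, an adaptor of TNF receptors, from 58.8 to 24.0 (−1.29 ± 0.31). Tnfrsf23, a decoy receptor for TRAIL, fell from 90.7 to 35.5 (−1.35 ± 0.25). The GATA cofactor Zfpm1 (FOG1) fell from 122 to 49.7 (−1.29 ± 0.25), the tetraspanin Tspan11 from 223 to 80.2 (−1.48 ± 0.17), the RNA-binding protein Cpeb2 from 51.4 to 20.4 (−1.33 ± 0.37) and the cytoskeletal protein Nav2 from 174 to 70.9 (−1.29 ± 0.28). Hivep3 (−1.93 ± 0.77) and the microtubule protein Map1a (−1.34 ± 0.41) had the widest errors, and their calls were lost with the folds as deposited (adjusted p = 0.645 and 0.0539 from the same test), as was that of Egr3 (adjusted p = 0.303).

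The promoters were searched for the E-box that Myc and Max bind. RefSeq promoter windows of 300 bases (250 before to 50 after the start, GRCm38.p6) were matched by symbol to 8396 of the 10447 genes. The letters CACGTG, on either strand, stood in a window of 14.2% of the 1253 matched genes that rose, 11.0% of the 887 that fell and 11.8% of the 6256 that did not pass. Over all matched genes tested the share was 12.1%. It was 7.15% of all 32851 promoter windows, which are counted singly and include those of untested genes, so the shares of windows and of genes are not alike. A gene with several starts has several windows and counts where any of them holds the letters, on average 1.22 windows a gene among those that rose and 1.39 among those that fell. The AP-1 letters TGACTCA stood in 2.71% of the genes that rose, 7.10% of those that fell and 3.95% of those that did not pass, against 4.10% of all matched genes tested and 5.20% of all windows. The TEAD letters CATTCC stood in 12.1%, 17.1% and 14.1%, against 14.1% of all matched genes tested and 14.7% of all windows. None of the 3 letter strings contains another, and a match is a description of the letters and not of binding. The shares were not tested.

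Shown here are 250 bases before the start of 4 genes, 2 that rose and 2 that fell with the largest folds among the named genes with CACGTG in this stretch, so that the position of the E-box can be seen. Not every chromosome was searched for this choice. Capitals mark CACGTG. The windows are Ifi30 at chr8:70766664-70766913 (minus strand), Rragb at chrX:153139708-153139957 (plus strand), Klf4 at chr4:55532476-55532725 (minus strand) and Acot11 at chr4:106799832-106800081 (minus strand), all of GRCm38.p6, and each is printed 5′ to 3′ on the gene's strand.
Ifi30: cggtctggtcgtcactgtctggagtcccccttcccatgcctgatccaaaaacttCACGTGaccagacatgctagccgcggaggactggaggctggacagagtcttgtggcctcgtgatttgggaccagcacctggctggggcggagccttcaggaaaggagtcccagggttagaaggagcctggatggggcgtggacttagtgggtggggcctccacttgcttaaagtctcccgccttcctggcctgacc
Rragb: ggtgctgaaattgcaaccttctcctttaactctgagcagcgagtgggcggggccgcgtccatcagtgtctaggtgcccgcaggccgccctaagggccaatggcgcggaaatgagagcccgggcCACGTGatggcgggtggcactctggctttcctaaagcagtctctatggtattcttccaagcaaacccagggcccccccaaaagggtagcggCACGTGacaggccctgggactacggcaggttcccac
Klf4: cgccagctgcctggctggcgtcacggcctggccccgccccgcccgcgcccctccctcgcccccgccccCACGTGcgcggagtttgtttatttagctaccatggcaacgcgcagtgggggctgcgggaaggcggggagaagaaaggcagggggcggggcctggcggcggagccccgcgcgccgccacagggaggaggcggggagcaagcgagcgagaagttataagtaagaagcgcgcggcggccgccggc
Acot11: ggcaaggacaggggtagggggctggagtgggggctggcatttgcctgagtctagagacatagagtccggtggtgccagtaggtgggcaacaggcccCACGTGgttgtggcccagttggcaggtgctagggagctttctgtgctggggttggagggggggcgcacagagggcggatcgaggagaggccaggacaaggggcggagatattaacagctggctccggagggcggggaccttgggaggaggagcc
The E-box began 196 bases before the start in Ifi30, 127 and 36 bases before it in Rragb, 182 in Klf4 and 154 in Acot11. Klf4, a transcription factor linked to growth arrest, fell from 217 to 95.6 (log2 fold change −1.18 ± 0.24) and Acot11, an acyl-CoA thioesterase, from 84.2 to 43.4 (−0.96 ± 0.22). Genes of both directions were picked for holding these letters, so the 4 windows do not compare the directions.

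The response to OHT was then set beside that without dox, to ask whether MycER acts on the same genes when YAP S127A is present. OHT against mock raised 1505 genes (14.4%) and lowered 1145 (11.0%), or 1891 and 666 without scaling between the comparisons. It shares no library with OHT+dox against dox. The group means of both were, however, recovered through the same estimate of the mock mean, and both tests use the same dispersion per gene. Their values and calls are thus not fully independent. The log2 fold changes of both comparisons had a Pearson correlation of 0.91 and a Spearman correlation of 0.89 across the 10447 genes. This describes genes, and genes are not replicates. Of the 1489 genes that rose with dox present, 1214 (81.5%) also rose without it, which is 80.7% of the 1505. Of the 1138 that fell, 777 (68.3%) also fell without dox, 67.9% of the 1145. No gene rose in one of these comparisons and fell in the other.

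The 275 genes that rose with dox present and did not pass without it had a median log2 fold change of 0.34 with dox and 0.21 without it, and 274 of them had a positive value without dox. The corresponding 361 genes that fell had medians of −0.38 and −0.23, and all of them were negative without dox. The difference itself was tested as the interaction, the fold of OHT+dox over dox minus that of OHT over mock. It passed for 0 of the 10447 genes (0%) by the Wald test at an adjusted p under 0.05, and unadjusted p-values fell under 0.05 for 122 genes, 32 with a positive and 90 with a negative difference. Of the 275 and 361 genes above, 12 and 2 lay under this value before adjustment. Over all genes, the standard deviation of the interaction z-values was 0.70, so the standard errors were larger than the spread of the differences. With standard errors scaled to that spread, 35 genes passed.

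Tfrc, the transferrin receptor that brings iron into the cell, had the smallest interaction p. Its level was 485 in mock, 2143 in OHT, 946 in dox and 2668 in OHT+dox. OHT thus raised it by a log2 fold change of 2.14 ± 0.10 without dox and 1.497 ± 0.099 with dox, a difference of −0.65 ± 0.14 with an adjusted p of 0.0577 from the Wald test. Genes with standard errors only near their upper limit were first to take the dispersion of genes of like mean. That rule, replaced after its values were seen, passed 2 genes, Tfrc (adjusted p = 0.0461 from the same test) and the histone methyltransferase Kmt2d, which was named after its values were seen. The other genes of the 5 with the smallest interaction p were Fam185a (−0.72 ± 0.17), Cluh (−0.45 ± 0.12), AI506816 (−0.55 ± 0.15) and Rrp12 (−0.71 ± 0.19), all with smaller log2 fold changes with dox than without it. Cluh is an RNA-binding protein of nuclear-encoded mitochondrial mRNAs and Rrp12 a factor of ribosomal subunit export.

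**Figure D2:**
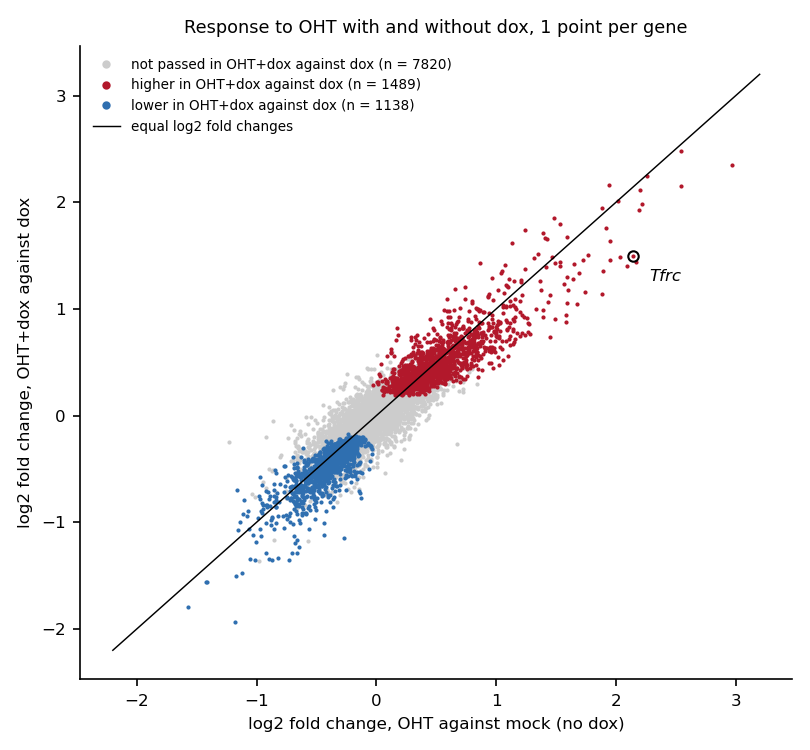
Log2 fold change of OHT+dox over dox (vertical) against that of OHT over mock (horizontal), 1 point per gene, red where higher, blue where lower and grey where not passed in OHT+dox against dox. The line marks equal values. The points follow the line, and the circled gene, Tfrc, which has the smallest interaction p, lies below it.

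The level on which OHT acted was that of dox-treated cells, in which 807 genes (7.72%) were higher and 583 (5.58%) lower than in mock. This comparison shares the dox libraries with OHT+dox against dox, so an error in a dox mean moves the values of both in opposite directions, and they are only given side by side. Of the 1489 genes that rose on OHT, 358 were higher and 40 lower in dox than in mock. Of the 1138 that fell, 83 were higher and 137 lower.

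Among genes that both agents raised, Smpdl3b had a log2 fold change of 0.68 ± 0.17 in dox against mock and 2.35 ± 0.15 in OHT+dox against dox. Dgat2 had 0.70 and 2.15 and Polr3g 0.81 and 1.98. Pdxp, a pyridoxal phosphatase, had 0.63 and 1.64, and Noa1, a GTPase of mitochondrial ribosome assembly, 0.42 and 1.51. Genes that were lower in both include the receptors Mrgprf (−0.57 and −1.16) and Gpr153 (−0.28 and −0.93), the innate immune sensor Nod1 (−0.63 and −1.06), the metalloprotease Adamts7 (−0.47 and −1.01) and Acot11 (−0.84 and −0.96).

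Other genes moved one way with dox and the other way with OHT. Glul, glutamine synthetase, had a level of 387 in mock, 294 in dox and 905 in OHT+dox, a log2 fold change of −0.40 ± 0.11 and then of 1.62 ± 0.11. Deptor, an inhibitor of mTOR, went from 998 to 742 and to 1412 (−0.43 ± 0.11 and 0.93 ± 0.11). Tgm2, transglutaminase 2, went from 236 to 154 and to 272 (−0.62 ± 0.17 and 0.82 ± 0.17). Fam135b had the largest drop with dox (−1.53 ± 0.26) of these genes and a rise of 1.20 ± 0.26 with OHT, which was lost with the folds as deposited (adjusted p = 0.0655 from the Wald test). In the opposite sense, Prkg2, a cGMP-dependent kinase, was raised by dox (0.97 ± 0.24) and lowered by OHT (−1.01 ± 0.24), as were Nav2, Egr3, Klf4 and Myc. Of these genes, Tgm2 (0.18 ± 0.16), Prkg2 (−0.43 ± 0.26) and Nav2 (−0.70 ± 0.29) did not pass in OHT against mock.

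The gene lists that follow hold known members of a pathway, and each is described by its counts at the test over all genes and by its median log2 fold change, beside 14.3% higher, 10.9% lower and a median of −0.0021 over all genes tested. They name 1211 genes, of which 1048 were tested.

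Ribosome biogenesis had the largest share of genes that rose among these lists. Of 83 genes of this list, 66 rose and 0 fell, with a median log2 fold change of 0.38. Rrp9, a U3 snoRNP protein, rose from 525 to 1092 (1.06 ± 0.12). The RNA polymerase I subunits Polr1e (0.92 ± 0.15) and Polr1b (0.78 ± 0.10) rose, as did Rrp12 (0.87 ± 0.13) and Lyar (0.77 ± 0.17). Ncl, the nucleolar protein nucleolin, rose from 2199.6 to 3340.2 (0.60 ± 0.099). In dox against mock 63 of the list were already higher, and in OHT against mock 73. Of 21 genes of RNA polymerase III, 6 rose, led by Polr3g.

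In nucleotide synthesis, which feeds RNA and DNA synthesis, 21 of 34 genes rose and 0 fell (median 0.38). The purine enzymes Pfas and Ppat rose from 1419 to 2790.2 (log2 fold change 0.98 ± 0.092) and from 884 to 1545 (0.81 ± 0.096), and the dCTP pyrophosphatase Dctpp1 from 139.9 to 262 (0.90 ± 0.18). Rrm2, a ribonucleotide reductase subunit, rose by 0.79 ± 0.24 on the log2 scale. Cad, which starts pyrimidine synthesis, rose from 2144 to 3333 (0.64 ± 0.099).

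In serine and one-carbon metabolism 10 of 17 rose. Mthfd1l, the mitochondrial formyltetrahydrofolate synthetase, led with 378 to 968 (1.36 ± 0.13), followed by Cth (0.66 ± 0.24), whose call was lost with a prior standard deviation 10% lower (adjusted p = 0.0518 from the Wald test), Mthfd1 (0.63 ± 0.10), Fpgs (0.52 ± 0.11) and Psat1 (0.52 ± 0.10). In dox against mock 12 of the 17 were higher. Of 13 polyamine genes, 4 rose and 1 fell. Spermine synthase Sms rose (0.68 ± 0.11), and the spermine and spermidine acetyltransferase Sat1, which breaks polyamines down, fell (−0.34 ± 0.11). Odc1, ornithine decarboxylase and a known Myc target, did not pass: its level was 2088 in dox and 2159 in OHT+dox (log2 fold change 0.048 ± 0.082, 95% interval −0.11 to 0.21).

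Fewer genes passed in the lists of the translation machinery itself. Of 54 cytosolic ribosomal proteins 1 rose, Rps24 (0.24 ± 0.084), and the list had a median of 0.046. Reads of ribosomal protein genes may be shared with processed copies. Of 20 tRNA synthetases 5 rose, among them both subunits of the phenylalanine enzyme, Farsb (0.57 ± 0.13) and Farsa (0.41 ± 0.089). In dox against mock 14 of the 20 were higher, and in OHT against mock 11. Of 37 initiation genes 7 rose, with Eif2b3 (0.52 ± 0.16) and the cap-binding protein Eif4e (0.499 ± 0.093), and Eif3f fell (−0.37 ± 0.14). The share of initiation genes that rose was not far above the 14.3% over all genes tested.

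Among 29 chaperones 13 rose, including the ribosome-associated Dnajc2 (0.67 ± 0.13) and the mitochondrial Hspd1 (0.37 ± 0.091) and Trap1 (0.39 ± 0.095). Of 27 genes of snRNP assembly 12 rose, such as the arginine methyltransferase Prmt5 (0.59 ± 0.097), Lsm7 (0.63 ± 0.13) and Smn1 (0.49 ± 0.16). Mitochondrial lists divided. Of 25 import genes 9 rose, led by the small chaperones Timm8a1 (0.78 ± 0.12) and Timm9 (0.70 ± 0.13), and of 45 mitochondrial ribosomal proteins 15, led by Mrpl16 (0.62 ± 0.12). Of 50 nuclear-encoded genes of oxidative phosphorylation 0 passed the Wald test in either direction, with a median of 0.079, and 2 had an unadjusted p under 0.05, both higher.

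**Figure D3:**
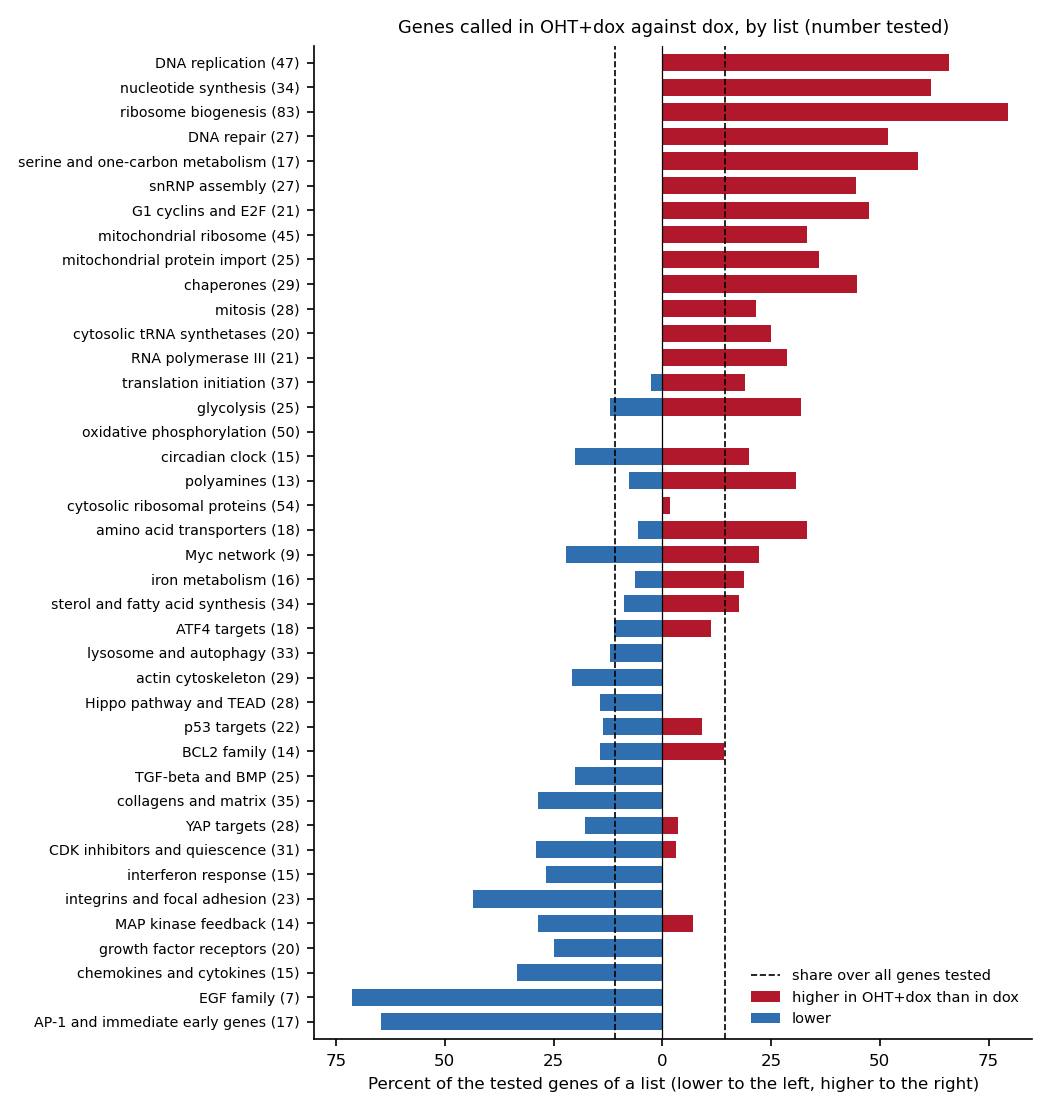
Percent of the tested genes of each list that were higher (red, to the right) or lower (blue, to the left) in OHT+dox than in dox, with the number tested in brackets and lists ordered by their median log2 fold change. Dashed lines mark the shares over all genes tested, 14.3% and 10.9%. Ribosome biogenesis reaches furthest to the right (66 of 83), and the immediate early genes and the EGF family reach furthest to the left (11 of 17 and 5 of 7).

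Among the cell cycle lists, DNA replication had the largest share of genes that rose. Of 47 DNA replication genes 31 rose and 0 fell, with a median of 0.49. Uhrf1, which maintains DNA methylation at the fork, rose from 171 to 542 (log2 fold change 1.66 ± 0.17). The origin licensing factor Cdc6 rose from 59.6 to 188 (1.66 ± 0.23) and the helicase subunit Mcm5 from 198 to 474 (1.26 ± 0.23). Clspn, which couples stalled forks to the checkpoint, rose from 56.3 to 151 (1.43 ± 0.23), and the leading-strand polymerase Pole by 1.09 ± 0.15 on the log2 scale. In dox against mock 3 of this list were higher, and in OHT against mock 31, so the rise with OHT was seen with and without dox.

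Of 21 genes of G1 cyclins and E2F factors 10 rose. Cyclin E1 (Ccne1), which with CDK2 starts S phase, went from 73.4 to 194 (1.398 ± 0.24) and cyclin A2 (Ccna2) from 154 to 306 (0.99 ± 0.17). The G1 kinase Cdk6 (0.59 ± 0.16), Skp2, the ubiquitin ligase subunit that recognizes p27 (0.49 ± 0.10), and E2f1 (0.37 ± 0.13) also rose. The cyclins D did not pass, Ccnd1 with a level of 2775 in dox and 2903 in OHT+dox (95% interval of the log2 fold change −0.10 to 0.23) and Ccnd2 with 3789.7 and 4323 (−0.0023 to 0.38). Of 28 mitotic genes 6 rose, with Aurkb (0.89 ± 0.25), Racgap1 (0.71 ± 0.16) and Cdk1 (0.44 ± 0.14), against 2 in OHT over mock, and the median of the list was 0.18. In dox against mock 0 of the list were higher and 1 lower, with a median of −0.18. The summed levels of the list were 5107 in mock, 5491 in OHT, 4635 in dox and 5353 in OHT+dox. The interaction passed for 0 of these genes.

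In DNA repair 14 of 27 rose, with uracil-DNA glycosylase Ung furthest, from 131 to 313 (1.26 ± 0.19), and the kinases Chek1 (0.85 ± 0.20), Atr (0.64 ± 0.094) and Atm (0.57 ± 0.087) among them. Of 31 CDK inhibitors and genes of quiescence 9 fell and 1 rose. Klf4 and Klf2 (−0.85 ± 0.26), the forkhead factor Foxo1 (−0.58 ± 0.15), the antiproliferative Btg2 (−0.55 ± 0.11) and Ccng2 (−0.42 ± 0.098) fell, and so did Cdkn2b, the CDK4 inhibitor p15 (−0.37 ± 0.10). Klf9, a glucocorticoid-induced factor, rose (0.46 ± 0.11). Cdkn1b, which encodes p27, did not pass, with 1481 in dox and 1330.3 in OHT+dox (95% interval −0.33 to 0.018). Cdkn1a (p21) had no adjusted p in the comparison of dox with mock and was not tested.

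Of 22 p53 targets 2 rose and 3 fell, and of 14 BCL2 family genes 2 rose and 2 fell. Both lists thus lay near the 14.3% higher and 10.9% lower over all genes tested. The pro-apoptotic Bok rose from 116 to 201 (0.80 ± 0.20) and Bbc3 (PUMA) from 152 to 202 (0.41 ± 0.16), whereas the pro-apoptotic Bcl2l11 (BIM, −0.40 ± 0.15) and the protective Bcl2l1 (−0.27 ± 0.085) fell. Aen, a p53-induced nuclease, rose (0.55 ± 0.13), and Trp53inp1 (−0.62 ± 0.18) and Eda2r (−0.85 ± 0.22) fell. The calls of Bbc3, Bcl2l11 and Trp53inp1 were lost with the largest of the 3 dispersions (adjusted p = 0.0505, 0.0702 and 0.0962 from the Wald test).

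Genes of uptake and energy metabolism moved in both directions. In glycolysis 8 of 25 rose and 3 fell: the lactate transporter Slc16a1 (0.70 ± 0.09), the pyruvate dehydrogenase kinase Pdk1 (0.69 ± 0.096) and hexokinase 2 (Hk2, 0.48 ± 0.12) rose, and 2 other kinases of the same family, Pdk4 (−0.89 ± 0.19) and Pdk3 (−0.51 ± 0.14), fell together with Eno2 (−0.60 ± 0.18). Of 18 amino acid transporters 6 rose, with the glutamine carrier Slc1a5 from 501 to 849.5 (0.76 ± 0.12), and 1 fell, the lysosomal Slc36a1 (−0.67 ± 0.19). In iron metabolism 3 of 16 rose, Tfrc, Aco1 (0.31 ± 0.092) and the mitochondrial iron importer Slc25a37 (0.31 ± 0.11), and the heme oxygenase Hmox1 fell (−0.31 ± 0.12), a call that was lost with the largest of the 3 dispersions (adjusted p = 0.0683 from the Wald test).

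In sterol and fatty acid synthesis 6 of 34 rose and 3 fell. The fatty acid genes Elovl6 (0.503 ± 0.092), Acaca (0.44 ± 0.088) and Fasn (0.34 ± 0.078) rose. Of the sterol genes Dhcr7 rose (0.73 ± 0.15) while Hsd17b7 (−0.54 ± 0.14) and Mvd (−0.36 ± 0.14) fell, and both of the latter were higher in dox than in mock (0.88 ± 0.15 and 0.64 ± 0.14). The call of Mvd was lost with the folds as deposited (adjusted p = 0.120 from the Wald test). Of 18 targets of the amino acid response factor ATF4 2 rose, Psat1 and Asns (0.45 ± 0.12), and 2 fell, Atf3 (−0.75 ± 0.26) and Vldlr (−0.41 ± 0.092). In both directions the shares of the sterol and fatty acid list and of the ATF4 list were near the 14.3% and 10.9% over all genes tested.

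Immediate early genes, which serum and growth factors induce within minutes, were among the lists with the lowest medians (−0.47). Of 17 tested 11 fell and 0 rose. Fos, a subunit of the AP-1 transcription factor, had a level of 123 in mock, 255 in dox and 148 in OHT+dox (log2 fold change −0.78 ± 0.18), and its partners Jun (−0.500 ± 0.10), Jund (−0.47 ± 0.093) and Fosl2 (−0.40 ± 0.10) fell too. Egr1 went from 618 in mock to 1132 in dox and 591 in OHT+dox (−0.94 ± 0.23), and Egr2 from 132 to 253 and 143 (−0.82 ± 0.30). The small Maf protein Maff (−0.75 ± 0.17) followed the same course. For Egr3, Egr1, Egr2, Fos and Maff dox thus raised the level and OHT lowered it, and both changes rest on the same dox libraries. Egr1 and Egr2 did not pass with the folds as deposited (adjusted p = 0.0509 and 0.0839 from the Wald test). In OHT against mock, without dox, 11 of the 17 were also lower and 0 higher, with a median of −0.48. Without dox, OHT lowered Egr1 from 618 to 292 (log2 fold change −1.08 ± 0.24) and Fos from 123 to 74.7 (−0.72 ± 0.20). Maff fell from 220 to 122 (−0.85 ± 0.19) in that comparison. Egr3 fell there too, and Egr2 did not pass. The interaction passed for 0 of the list.

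Of 7 tested genes of the EGF family 5 fell and 0 rose. Ereg, which encodes epiregulin, had a level of 223 in mock, 163 in OHT, 717 in dox and 455 in OHT+dox, so with both agents it lay below dox and above mock (log2 fold change −0.66 ± 0.15). Tgfa, which encodes TGF-α, had 524, 289, 682 and 388 in the same groups (−0.81 ± 0.11), and neuregulin 1 (Nrg1) 1125, 881, 1934 and 1448 (−0.42 ± 0.092). The receptor Erbb2 (−0.35 ± 0.10) and the receptor inhibitor Errfi1 (−0.45 ± 0.13) fell. Areg (amphiregulin) was listed at 0 in the deposited means.

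Of 14 genes of MAP kinase feedback 4 fell, Dusp1 (−0.67 ± 0.092), Spred3 (−0.64 ± 0.17), Spry2 (−0.46 ± 0.15) and Spred2 (−0.86 ± 0.29), and Dusp7 rose (0.34 ± 0.094). The call of Spred2 was lost with the folds as deposited (adjusted p = 0.105 from the Wald test). Of 20 growth factor receptors and ligands 5 fell, Pdgfrb (−0.28 ± 0.074), Fgfr1 (−0.22 ± 0.077), Fgfrl1 (−0.38 ± 0.11), Igf2 (−0.41 ± 0.16) and Pdgfra (−0.42 ± 0.17). The calls of Igf2 and Pdgfra were lost with the folds as deposited (adjusted p = 0.0693 and 0.156 from the same test).

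**Figure D4:**
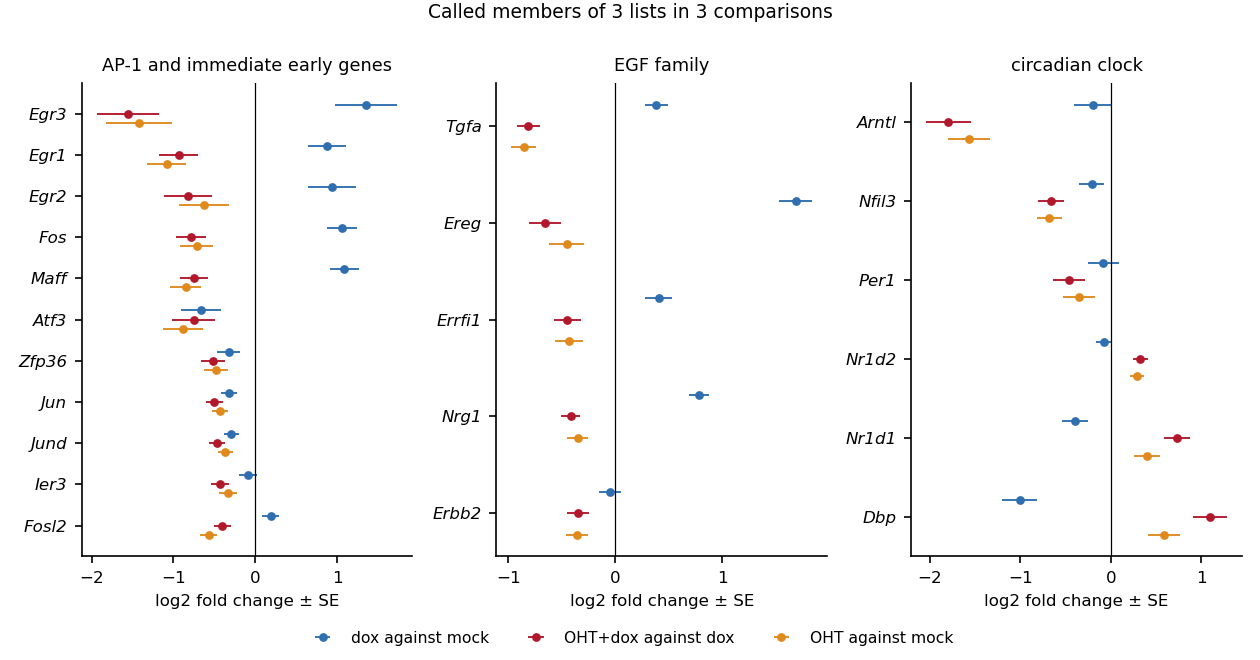
Log2 fold change ± standard error of the genes that passed in OHT+dox against dox from the lists of immediate early genes, the EGF family and the circadian clock, in dox against mock (blue), OHT+dox against dox (red) and OHT against mock (orange). Red and orange points lie on the same side of 0 for every gene shown, and Ereg has the highest blue point (1.68).

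The known targets of YAP had a median log2 fold change of −0.16 when MycER was activated in YAP S127A cells. Of 28 tested 1 rose, Birc5 (survivin, 0.62 ± 0.23), which is also a mitotic gene, and 5 fell. In OHT against mock, without dox, 2 of the list were higher and 9 lower, with a median of −0.17. The interaction passed for 0 of the list. Ctgf (CCN2), a matrix-associated protein and standard target, had a level of 1534 in mock, 1230.1 in OHT, 2395 in dox and 2088 in OHT+dox. Its fold of OHT+dox over dox did not pass (−0.198 ± 0.087, adjusted p = 0.0776 from the Wald test), and neither did that of Cyr61 (CCN1), with levels of 2826 and 2520.2 (−0.17 ± 0.087). In OHT against mock Ctgf fell (−0.32 ± 0.089) and Cyr61 did not pass. The 5 genes that fell in OHT+dox against dox were the Hedgehog factor Gli2 (−0.76 ± 0.23), endothelin 1 (Edn1, −0.41 ± 0.14), Lats2 (−0.26 ± 0.091), Arhgef17 (−0.25 ± 0.088) and Amotl1 (−0.17 ± 0.068). Gli2, Birc5 and Edn1 did not pass with the folds as deposited (adjusted p = 0.580, 0.0745 and 0.05004 from the same test), nor Amotl1 with groups scaled to equal sums (adjusted p = 0.0510). Ankrd1 had no adjusted p in the comparison of dox with mock and was not tested.

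Of the Hippo pathway and TEAD genes themselves 4 of 28 fell and 0 rose, and the share that fell is near the 10.9% over all genes tested. Lats2 and Amotl1, already given with the YAP targets, are 2 of the 4. Wwtr1 (TAZ), the paralog of YAP, fell from 2330.3 to 1879 (log2 fold change −0.31 ± 0.075), the kinase Lats2 from 2497 to 2082, and Frmd6, an upstream regulator, from 2662 to 2228 (−0.26 ± 0.077). Yap1 had a level of 2054 in mock, 1983 in dox and 2046 in OHT+dox. Whether reads of the YAP S127A transgene counted toward it was not tested, so these values do not check the induction.

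Myc, too, may collect reads of the MycER transgene, and Esr1 those of its hormone-binding part. With that limit, Myc had a level of 508 in mock, 228 in OHT, 856 in dox and 407 in OHT+dox, a log2 fold change of −1.07 ± 0.14 on OHT with dox and −1.15 ± 0.15 without it. Esr1 went from 724 to 509.6 (−0.51 ± 0.16), a call that was lost with the folds as deposited (adjusted p = 0.118 from the Wald test). Of 9 genes of the Myc network 2 rose and 2 fell. Myc's partner Max rose from 676 to 835 (0.30 ± 0.10), and of the Max-binding repressors Mxi1 rose from 891 to 1461 (0.71 ± 0.09) whereas Mxd1 fell from 478 to 372 (−0.36 ± 0.11).

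In the adhesion and matrix lists the genes that passed all fell. Of 23 genes of integrins and focal adhesions 10 fell, with a median of −0.24. The integrin subunits Itga8 (−0.91 ± 0.17), Itga10 (−0.65 ± 0.17), Itga11, which binds collagen (−0.58 ± 0.11), Itgb8, which activates latent TGF-β (−0.56 ± 0.20), and Itga3, which binds laminin (−0.44 ± 0.085), fell furthest. Of 35 collagen and matrix genes 10 fell, with Col8a1 (−0.57 ± 0.15), Col5a1 from 4558 to 3575 (−0.35 ± 0.076), Timp1 (−0.35 ± 0.12), tenascin C (Tnc, −0.31 ± 0.097) and the membrane protease Mmp14 (−0.29 ± 0.085). Of 29 actin cytoskeleton genes 6 fell, with Pdlim7 (−0.53 ± 0.11), the actin polymerization factor Vasp (−0.46 ± 0.11) and Zyx (−0.29 ± 0.091). Of 25 TGF-β and BMP genes 5 fell, among them Smad7 (−0.39 ± 0.13), the receptor Tgfbr1 (−0.29 ± 0.081) and the BMP antagonist Grem1 (−0.31 ± 0.097).

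In the immune lists, too, the genes that passed fell. Of 15 interferon-responsive genes 4 fell, the RNA sensor Ddx58 (RIG-I, −0.59 ± 0.11), Stat2 (−0.59 ± 0.16) and the peptide transporters Tap1 (−0.71 ± 0.26) and Tap2 (−0.43 ± 0.15). Of 15 chemokine and cytokine genes 5 fell: Ccl2 from 665 to 529.8 (−0.33 ± 0.12), Ccl7 (−0.54 ± 0.21), Ccl9 (−0.61 ± 0.19) and the interleukin receptors Il1r1 (−0.58 ± 0.097) and Il1rl1 (−0.53 ± 0.16). Ccl2, Ccl7 and Il1rl1 were higher in dox than in mock (0.54 ± 0.12, 0.63 ± 0.21 and 0.62 ± 0.16). The calls of Ccl2 and Ccl7 were lost with the folds as deposited (adjusted p = 0.0580 and 0.151 from the Wald test), and that of Il1rl1 with the largest of the 3 dispersions (adjusted p = 0.0994 from the same test). Of 33 genes of lysosomes and autophagy 4 fell, with Wipi1 (−0.61 ± 0.12) and the cholesterol exporter Npc1 (−0.31 ± 0.11). This share is near the 10.9% that fell over all genes tested.

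Clock genes moved in both directions. Of 15 tested 3 rose and 3 fell. Beside Arntl, its transcriptional repressor Nr1d1 (REV-ERBα) rose from 319.9 to 529 (0.73 ± 0.15) and the related Nr1d2 from 1304 to 1633 (0.32 ± 0.081). The output factor Dbp had a level of 143 in mock, 214 in OHT, 70.9 in dox and 151 in OHT+dox, so it was lower with dox and higher with OHT (1.09 ± 0.19). Nfil3, which opposes Dbp at the same sites, fell from 405 to 257 (−0.66 ± 0.14), and Per1 fell by a smaller fold (−0.46 ± 0.18), a call that was lost with a prior standard deviation 10% higher (adjusted p = 0.145 from the Wald test). The time of day of harvest is not stated in those sources.

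The labelled cell type was checked against its markers. Of 10 fibroblast markers 7 were tested, with a summed level of 25514 in dox and 22167 in OHT+dox. Pdgfrb and Pdgfra fell as given above, and the other 5 did not pass. Of the 3 not tested, Thy1 (0.49 and 0.34) and Lum (2.63 and 3.00) were under 10 in the authors' means of both comparisons, of dox and of OHT+dox with mock, and Dcn had 36.8 and 34.8. Of 50 markers of macrophages, epithelium, endothelium, skeletal muscle, adipocytes and neural cells 2 were tested, Lpl, which did not pass (0.057 ± 0.25), and Map2, which fell from 786 to 561 (−0.49 ± 0.11). Of the other 48, 8 were listed at 0 in the authors' means of both comparisons and 42 were under 10 in both, and the highest was at 37.4 and 41.1. Their summed authors' means were 195 in the comparison of dox and 216 in that of OHT+dox with mock.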

How the data were processed

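RNA-seq libraries of total RNA, made with an unstranded kit whose poly(A) selection step was left out, were analysed for 12 samples in 4 groups of 3 (mock, OHT, dox, OHT+dox). Overlapping and antisense genes therefore cannot be separated. The authors, by the submitters' processing notes, used TopHat2 2.0.8, SAMtools, the mm9 build, featureCounts 1.4.5-p1 and DESeq2. Neither the annotation nor the version of DESeq2 the authors used is stated in those sources.

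The deposited table gives, for OHT, dox and OHT+dox each against mock, the authors' mean normalized count over 6 libraries, the authors' shrunken log2 fold change, the authors' p-value adjusted by Benjamini and Hochberg's method, and a Y or N call, which was not used. It holds no value per library, so the folds and p-values of the authors' comparisons were used as input to recover group means and are not themselves reported. Depth per library is unknown.

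Of 21671 rows, 10447 had an adjusted p for both dox and OHT+dox and a symbol that was not a date. The adjustment was undone to give p, z and the standard error of each shrunken fold. With a normal prior its highest possible value is 0.5 times the prior's standard deviation, and this gave 0.45, 0.34 and 0.62 for OHT, dox and OHT+dox on the log2 scale. Folds were unshrunken, each comparison was split into its 2 group means, and the comparisons were scaled through the median ratio of their mock means. A gene's dispersion is the mean of those recovered from the 3 comparisons. Standard errors were not read where p was above 0.9 or where they exceeded 95% of the peak. For 13 genes whose usable standard errors all exceeded it, the dispersion was taken from these. This rule was chosen after the data were seen, because the planned one, the dispersion of genes of like mean, gave such genes standard errors far below their own. Only 6 genes took the dispersion of genes of like mean. OHT+dox against dox, OHT against mock, dox against mock and the interaction were tested by two-sided Wald tests with Benjamini-Hochberg adjustment over 10447 genes, and calls are at an adjusted p under 0.05. The design had planned this test because the table was known to hold no library values. The recovery was tested on simulated data.

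The genes and lists were chosen with earlier results of these data known. Named genes are the 15 furthest in each direction with a level of at least 50, up to 5 called members of each list and any called member against its direction, a fixed set of known targets, the 5 furthest genes in each combination of direction with dox against mock, and the 5 with the smallest interaction p. Some named genes are not reported here. Promoter sequences are from RefSeq (GRCm38.p6). Python 3.11.15, numpy 2.4.6, scipy 1.17.1, pandas 2.3.3 and matplotlib 3.10.9 were used. The 13 alternatives tried changed scaling, dispersion, standard errors, shrinkage, prior, filters and the fold minimum.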

Additional observations from a re-analysis of the deposited data

How the results depend on the processing

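No named gene reversed its direction under any of the 13 alternatives. For OHT+dox against dox, adding the standard errors of the comparisons with mock gave 618 higher and 346 lower, standard errors scaled by the interaction's spread 2401 and 2256, and a log2 fold minimum of 0.5 593 and 428, against 1489 and 1138, and the other alternatives stayed within 1.5-fold. Of 234 named genes, 99 lost their call with the added standard errors and 83 with the fold minimum, against at most 21 under any other alternative. For OHT against mock, no scaling gave 666 lower (with 1891 higher), scaled standard errors 2321 higher and 2298 lower, and the fold minimum 694 and 352. For dox against mock, 1390 genes passed, 3342 with scaled standard errors and 472 with the fold minimum. The interaction passed for 0 genes, for 2 without scaling (Tfrc and Fam185a), 1 with the dispersion of dox and OHT+dox only, 1 with a prior standard deviation 10% lower and 1 among genes with a recovered standard error only (Tfrc in each), 35 with scaled standard errors, and 2 with the dispersion of genes near the peak taken from genes of like mean. That last alternative is the rule first planned. The rule used for the main values replaced it after the data were seen. Going back to the planned rule changed no call of a named gene in OHT+dox against dox. The scaled standard errors, the larger sums and the fold minimum move the counts by construction, and why the interaction moves under the others was not tested.

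No paired analysis was possible because the table holds no values per library, and leaving out each library in turn was not run for the same reason. Single libraries that stand apart are not visible in such a table. Folds of genes with wide errors rest on how the shrinkage was undone, and scaling between groups moved the median gene of OHT+dox against dox to between −0.0059 and −0.0012 on the log2 scale.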
